A study of Mus musculus with 5 samples.

Results

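The 45 genes described here encode the enzymes and carriers with which the liver breaks down amino acids and turns their nitrogen into urea. They were chosen by name, as a list of gene symbols, and each was read from the probe set annotated to that symbol alone. Where a gene had several such probe sets, the one with the highest mean over the arrays was used. By this rule 39 of the 45 genes had a probe set of their own, out of 18194 genes on the array, and those 39 genes had 65 probe sets. The remaining 6 names, Gls2, Acmsd, Sds, Sdsl, Amt and an entry written as Gstz1-like, matched no probe set with a single gene. Their expression was not analysed here. Whole liver was measured in 5 inbred mouse strains, C57BL/6J, FVB/NJ, BALB/CByJ, RIIIS/J and NZW/LacJ, all male, untreated and 10 weeks old. Each strain had 1 Affymetrix expression array, hybridised with RNA pooled from 3 animals. With 1 array per strain there is no replicate check, so no test was run, and each fold compares pools, not strains as such.

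Amino acids that are not needed for protein lose their amino group, mostly by transfer to glutamate and aspartate, and the carbon skeleton is burned or used to make glucose. The ammonia that is set free enters the urea cycle, which starts inside the mitochondria of hepatocytes and ends in the cytosol, so carriers in the mitochondrial membrane are part of the pathway. Most of these genes are strongly expressed in liver, and the intake of protein, fasting, glucagon and glucocorticoids are known to change them.

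All values are intensities on a linear scale, as deposited by the authors. A gene was called detected above an intensity of 8.41, the level under which 95% of 86 probe sets for taste, vomeronasal and olfactory receptors lay. All 39 genes were above it on all 5 arrays, and 34 of them had a mean intensity of at least 1000. The FVB/NJ and RIIIS/J arrays stood apart in genes of other cells. The 4 B cell markers on the array summed to 19644 in FVB/NJ and to between 43.2 and 296 in the other 4 strains, with Ms4a1 at 1827 in FVB/NJ. The 5 exocrine pancreas markers summed to 43421 in RIIIS/J and to between 702 and 1283 elsewhere, with Ctrb1, a pancreatic protease gene, at 7824 in RIIIS/J. The 4 erythroid markers on the array also had their highest sum in FVB/NJ, at 6275 against 1261 to 3733. Of them 3 were highest there, and Alas2 was highest in NZW/LacJ, at 3444 against 2861 in FVB/NJ. The 6 hepatocyte markers on the array, Alb, Apoa1, Apob, Fgb, Hnf4a and Ttr, were present in every strain, with sums from 249558 in FVB/NJ to 307094 in RIIIS/J. The counts of wide ranges, and the wide ranges that rest on FVB/NJ or RIIIS/J, are therefore given with and without that array, and the part of the other cells in them was not tested.

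**Figure D1:**
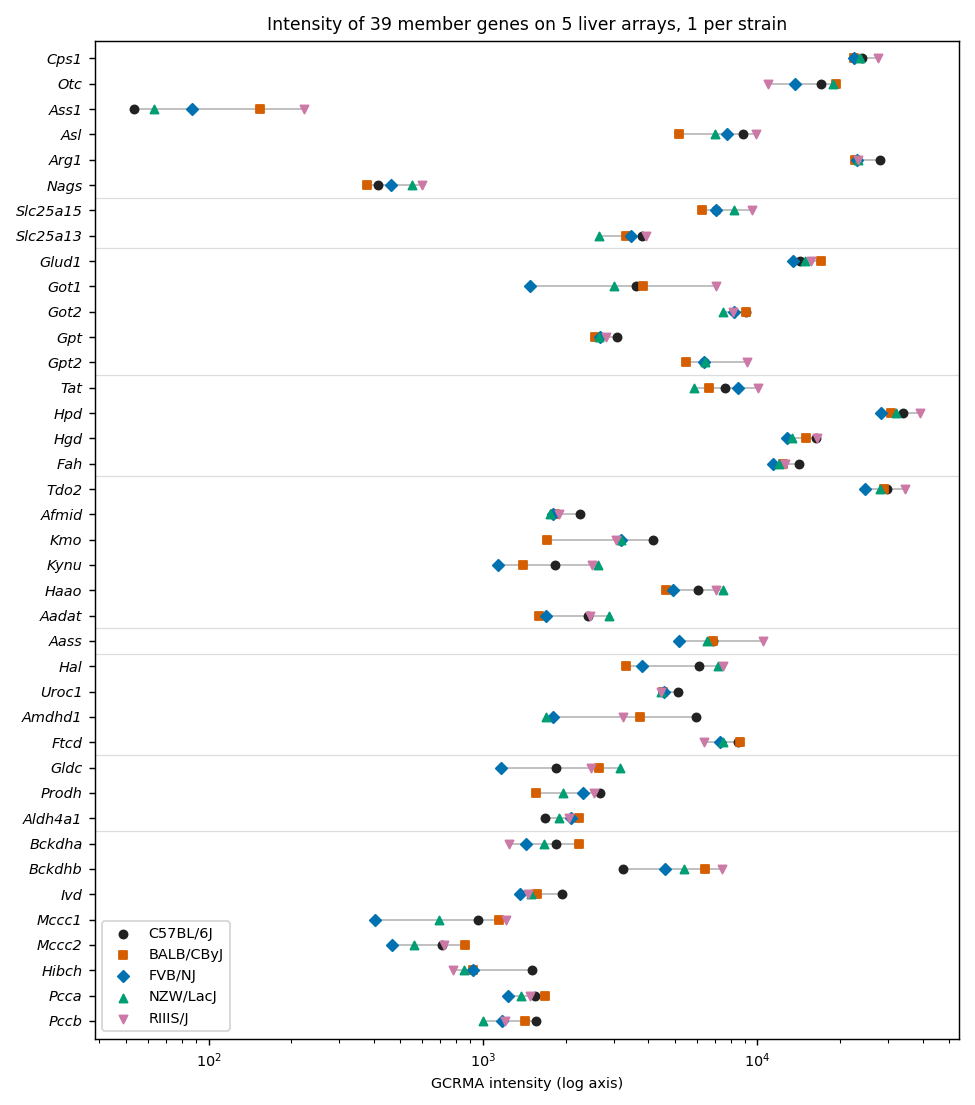
Intensity (log10 axis) of each of the 39 detected amino acid genes on the 5 arrays, 1 marker per strain and a line from lowest to highest, with the genes grouped by role and no error bars because each strain has 1 array. The spread between strains is wide for Got1, Ass1, Amdhd1 and Mccc1 and narrow for Uroc1, Gpt, Got2, Arg1 and Cps1.

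The amino acid genes ranged across the strains about as widely as other detected genes, and a minority reached 2-fold. A range of at least 1.5-fold was found for 23 of 39, against 56.6% of all detected genes. The highest strain was at least 2-fold above the lowest for 10 of 39 genes (25.6%): Ass1, Got1, Kmo, Kynu, Aass, Hal, Amdhd1, Gldc, Bckdhb and Mccc1. Of all 11921 detected genes 30.8% reached that range. Among the abundant genes, those with a mean of at least 1000, 8 of 34 amino acid genes (23.5%) reached it, against 24.3% of all 1945 abundant genes. The median range was 1.61-fold for the amino acid genes and 1.59-fold for all detected genes. Both shares were therefore near or below their background. They rest on the brightest probe set of each gene. A further probe set detected on all arrays reached 2-fold for 6 genes whose brightest one did not. This was not counted for all detected genes. Without the FVB/NJ array 6 of 39 genes kept a 2-fold range, with Aass, Gldc, Kynu and Mccc1 falling below it, and 20.5% of all detected genes did. Without the RIIIS/J array 8 of 39 kept it, with Aass and Bckdhb falling below, against 24.0% of all detected genes. Without FVB/NJ and RIIIS/J together Amdhd1, Ass1, Hal and Kmo kept it, 4 of 39 genes against 13.1% of all detected genes. The pools of 3 animals, 1 for each strain, give no measure of how much of such a range is variation between animals.

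The promoters of Got1, Ivd, Mccc1 and Mccc2 are printed first because they hold at least 3 CCAAT boxes, short elements bound by the factor NF-Y, and the genes were lowest in FVB/NJ. These genes were picked with both facts in view. Aldh4a1 and Tat also had 3 boxes each, and for them FVB/NJ was the second highest strain. The sequences are from RefSeq (GRCm38.p6), given 5′ to 3′ on the gene's strand, for the bases before the transcription start. Capitals mark the CCAAT box, CCAAT or its reverse complement ATTGG, and the E-box CACGTG. The Got1 window is chr19:43524606-43524855 on the minus strand. The Ivd window is chr2:118861744-118861958 on the plus strand. The Mccc1 window is chr3:36000695-36000928 on the minus strand and that of Mccc2 is chr13:100015640-100015889, also on the minus strand.
Got1: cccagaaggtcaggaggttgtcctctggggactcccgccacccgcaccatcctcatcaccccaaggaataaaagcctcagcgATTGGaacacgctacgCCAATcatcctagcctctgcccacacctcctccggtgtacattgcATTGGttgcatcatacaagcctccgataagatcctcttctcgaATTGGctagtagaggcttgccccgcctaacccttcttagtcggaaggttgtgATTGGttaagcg
Ivd: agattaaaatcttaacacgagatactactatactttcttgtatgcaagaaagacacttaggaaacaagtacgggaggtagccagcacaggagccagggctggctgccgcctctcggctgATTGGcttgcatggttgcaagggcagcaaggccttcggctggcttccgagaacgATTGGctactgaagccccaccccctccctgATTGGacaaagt
Mccc1: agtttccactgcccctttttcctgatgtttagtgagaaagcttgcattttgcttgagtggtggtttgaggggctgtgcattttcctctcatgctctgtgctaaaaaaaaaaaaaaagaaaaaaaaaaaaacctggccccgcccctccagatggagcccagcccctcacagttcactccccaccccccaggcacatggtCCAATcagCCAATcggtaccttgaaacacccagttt
Mccc2: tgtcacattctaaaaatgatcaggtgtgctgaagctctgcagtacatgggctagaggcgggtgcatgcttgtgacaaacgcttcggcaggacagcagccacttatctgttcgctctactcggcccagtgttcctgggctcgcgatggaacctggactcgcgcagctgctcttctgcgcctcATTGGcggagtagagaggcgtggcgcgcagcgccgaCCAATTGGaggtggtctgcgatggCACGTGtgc
The 250 bases before the start held 5 CCAAT boxes for Got1, 4 for Ivd, 3 for Mccc1 and 3 for Mccc2, counted on both strands. In Mccc2 a pair of them overlap on opposite strands, and the stretches printed hold 2 of 3 for Mccc1 and 3 of 4 for Ivd.

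The 39 promoters that matched belong to 36 of the 45 listed genes and are not those of the 39 measured genes. They include Acmsd and Amt, hold Bckdhb, Pcca and Slc25a15 more than once, and lack others such as Cps1 and Arg1. At least 3 CCAAT boxes were present in 6 of these 39 promoters (15.4%), those of Aldh4a1, Got1, Ivd, Mccc1, Mccc2 and Tat. The share among all 32851 promoters of the table was 2.79%. At least 1 box was present in 17 of 39 (43.6%) against 33.8% of all promoters. The CCAAT box was searched after the sequences had been seen, so these counts are a description and not a test. The palindromic E-box CACGTG was found in 4 promoters (10.3%), of Ass1, Mccc2, Slc25a13 and Slc25a15, against 6.02% of all. The glucocorticoid half-site AGAACA was found in 3 (7.69%), of Bckdhb, Haao and Pccb, against 16.1% of all. No promoter of these genes held the cAMP response element TGACGTCA, the D-box TTATGTAA or the C/EBP site TTGCGCAA within these 250 bases, which 1.55%, 0.819% and 0.164% of all promoters did. The motifs were searched on both strands, none of these 6 is contained in another, and a match is a run of letters, not a measured site.

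The enzymes that open and close the urea cycle were nearly level across the strains. Otc and Asl, which act between them, had wider ranges on their brightest probe sets. The median range of the 6 enzymes was 1.68-fold, and 4 of 6 had a range of at least 1.5-fold, with Ass1 read from a dim probe set. Cps1, carbamoyl-phosphate synthetase, which takes up the free ammonia, read 24003 in C57BL/6J, 22527 in BALB/CByJ, 22426 in FVB/NJ, 23586 in NZW/LacJ and 27588 in RIIIS/J, a range of 1.23-fold. Arg1, the arginase that releases urea, read 27919, 22770.4, 22993, 23224 and 23224 in the same order of strains, also 1.23-fold. RIIIS/J was thus highest for the enzyme that opens the cycle and C57BL/6J for the one that closes it, both by a small margin. All later lists of 5 intensities follow this order of strains.

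Otc, ornithine transcarbamylase, read 17094, 19367, 13739, 18892 and 10941, a range of 1.77-fold with RIIIS/J lowest, and of 1.41-fold without RIIIS/J. Its other probe sets read 15288, 14504, 11176, 13128 and 11764 on the one and 446, 435, 248, 435 and 442 on the other, both lowest in FVB/NJ. The low value of Otc in RIIIS/J was therefore seen on 1 of its 3 probe sets. Asl, argininosuccinate lyase, read 8888, 5162, 7719.7, 6985 and 9900.2, lowest in BALB/CByJ and 1.92-fold in range. Nags, which makes the activator of Cps1, read 414, 377, 464, 551 and 598. The strains NZW/LacJ and RIIIS/J were above the other 3 for Nags, with a range of 1.59-fold.

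Ass1, argininosuccinate synthetase, cannot be read clearly from this array. The probe set annotated to Ass1 alone read 53.7, 154, 87.3, 63.5 and 223, a range of 4.16-fold. A probe set annotated to both Ass1 and Gm5424, which RefSeq lists as a transcribed pseudogene, read 32889, 27945, 28392, 30171 and 34789, a range of 1.24-fold. The wide range was on the dim probe set, and the bright one was as level as Cps1. Without Ass1, 9 of 38 genes (23.7%) had a 2-fold range. Of the 6 urea cycle enzymes Ass1 was the only one that reached it.

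The mitochondrial carriers of the cycle also stayed within 2-fold on their brightest probe sets. Slc25a15, which exchanges ornithine and citrulline, read 7036, 6260.5, 7057, 8193 and 9524, a range of 1.52-fold with RIIIS/J highest. Its dimmer probe set read 368, 392, 450.0, 559 and 969, 2.64-fold in range and again highest in RIIIS/J. Slc25a13, or citrin, which brings aspartate out of the mitochondrion, read 3786, 3321, 3450.1, 2655 and 3931. NZW/LacJ was lowest for this carrier, at 1.48-fold below the highest strain.

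Among the enzymes that move amino groups, Got1 differed most and its partners least. Got1, the cytosolic aspartate aminotransferase, read 3614, 3829, 1485, 3010.4 and 7056, a range of 4.75-fold. FVB/NJ lay 2.03-fold below the nearest strain and RIIIS/J 1.84-fold above the nearest, so the extremes were on the arrays with B cell and pancreas signal. The range of Got1 was 2.34-fold without FVB/NJ, 2.58-fold without RIIIS/J and 1.27-fold without both. Exocrine pancreas genes were high on the same array as Got1, and their part in its value there was not tested.

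The mitochondrial partner Got2 read 9123, 9105, 8248, 7513 and 8142, a range of 1.21-fold. Gpt, an alanine aminotransferase, read 3088, 2566, 2664, 2637 and 2805, a range of 1.20-fold. Neither gene had a strain that lay away from the rest. Glud1, glutamate dehydrogenase, which frees ammonia from glutamate, read 14338, 17029, 13475, 14920.0 and 15686, within 1.26-fold. Gpt2, the mitochondrial alanine aminotransferase, read 6366, 5481, 6366, 6421 and 9129, highest in RIIIS/J, with a range of 1.67-fold that was 1.17-fold without RIIIS/J. Of its 3 further probe sets 2 were also highest in RIIIS/J, at 2.07-fold and 2.35-fold. The third read 7007, 6017, 5811, 4934 and 4798 and had RIIIS/J lowest, so the probe sets of Gpt2 disagree on the strain order.

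None of the 4 genes of the tyrosine pathway had a 2-fold range on its brightest probe set. Tat, tyrosine aminotransferase, which starts the pathway and is a classical glucocorticoid target, read 7636, 6635, 8477, 5871 and 10049.8, a range of 1.71-fold. Hpd, the dioxygenase that follows, read 33944, 30655, 28186, 31939 and 39165, within 1.39-fold. RIIIS/J was highest and a different strain lowest for each of these genes, NZW/LacJ for Tat and FVB/NJ for Hpd. Hgd, homogentisate dioxygenase, read 16306, 15078, 12815, 13364 and 16459, within 1.28-fold. A dimmer probe set of Hgd read 148, 187, 148, 78.5 and 148, a range of 2.38-fold with BALB/CByJ highest and NZW/LacJ lowest. Fah, whose product cleaves fumarylacetoacetate in the last step, read 14184, 12435, 11368, 11954 and 12601, within 1.25-fold. On the brightest probe sets of Hpd, Hgd and Fah C57BL/6J and RIIIS/J read above the other 3 strains and FVB/NJ was lowest.

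The genes of the tryptophan pathway had wider ranges than those of the tyrosine pathway, with medians of 1.71-fold and 1.34-fold. A 2-fold range was found for 2 of 6 (33.3%), near the 30.8% of all detected genes. Kmo, kynurenine monooxygenase, read 4159.7, 1716, 3185, 3185 and 3058, a range of 2.42-fold. BALB/CByJ lay 1.78-fold below the nearest strain for Kmo, and the range did not depend on the FVB/NJ or RIIIS/J array. Kynu, kynureninase, read 1831, 1395, 1138, 2628 and 2491, a range of 2.31-fold that was 1.88-fold without FVB/NJ. Haao, which opens the ring to make the precursor of NAD, read 6089, 4651, 4912, 7496 and 7047, a range of 1.61-fold. Aadat, an aminotransferase that acts on kynurenine, read 2411, 1597, 1693, 2888 and 2464, a range of 1.81-fold. Kynu, Haao and Aadat shared a strain order in which NZW/LacJ and RIIIS/J were above, C57BL/6J in the middle, and BALB/CByJ and FVB/NJ below. The deviation of a gene is the difference in log2 intensity between a strain and the average of the remaining 4. Over this role's 6 genes the median was 0.125 in C57BL/6J, -0.45 in BALB/CByJ, -0.32 in FVB/NJ, 0.28 in NZW/LacJ and 0.28 in RIIIS/J. C57BL/6J was above the mean of the other strains for 6 of 6, RIIIS/J for 5 and NZW/LacJ for 4.

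Tdo2, tryptophan dioxygenase, the entry step of this pathway, read 29657, 28995, 24655, 28057 and 34419 on its brightest probe set, a range of 1.40-fold with RIIIS/J highest. On its other probe sets RIIIS/J was lowest. They read 13283, 12542, 10438, 15722 and 8441, a range of 1.86-fold, and 5613, 7010.1, 4678, 8935 and 838, a range of 10.7-fold. RIIIS/J lay 5.58-fold below the nearest strain on the dimmest of the 3, so the direction for Tdo2 in RIIIS/J depends on the probe set. Afmid, kynurenine formamidase, read 2254, 1836, 1795, 1752 and 1889, within 1.29-fold.

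**Figure D2:**
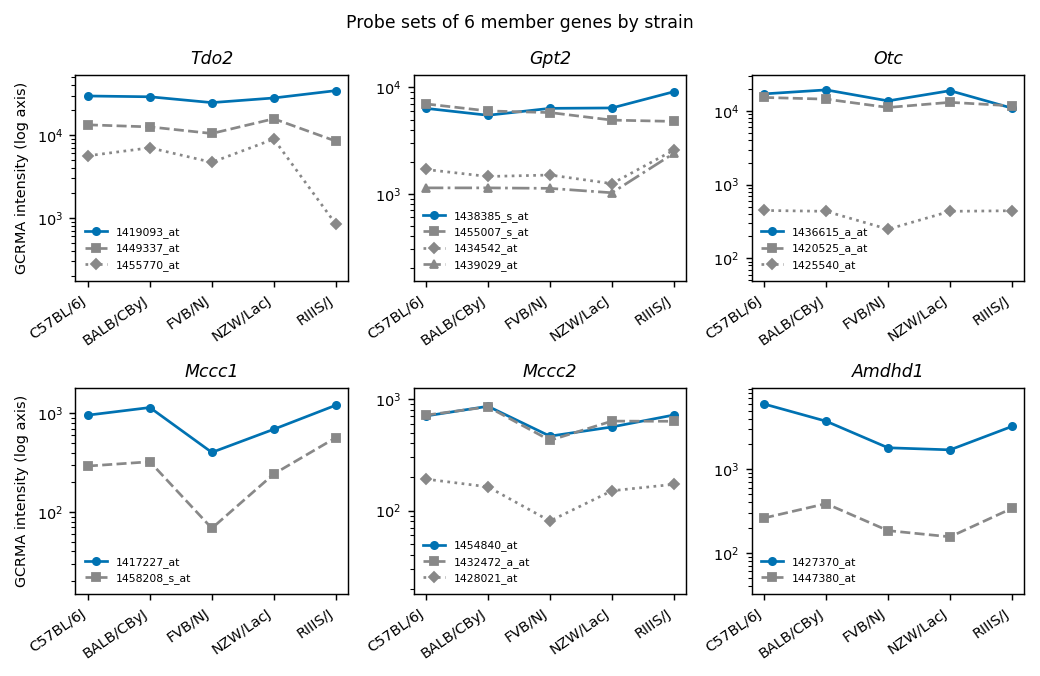
Intensity (log10 axis) on each of the 5 arrays for every probe set of Tdo2, Gpt2, Otc, Mccc1, Mccc2 and Amdhd1, 1 line per probe set and no error bars. The lines of Mccc1 and of Mccc2 all dip in FVB/NJ, whereas those of Tdo2 part in RIIIS/J, from 34419 on the brightest to 838 on the dimmest.

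Lysine breakdown was represented by Aass, which makes saccharopine from lysine. Aass read 6908, 6908, 5176, 6542 and 10449.5, a range of 2.02-fold with RIIIS/J 1.51-fold above the nearest strain. Its range was 1.60-fold without FVB/NJ, 1.33-fold without RIIIS/J and 1.89-fold after quantile normalization, so its place above 2-fold rests on these choices.

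The histidine pathway held both level and uneven genes. Hal, histidase, the first step, read 6116, 3311, 3784, 7169 and 7484, a range of 2.26-fold. BALB/CByJ and FVB/NJ were low and the other 3 strains high, and the range was 2.17-fold without FVB/NJ and RIIIS/J. Uroc1, urocanase, the next step, read 5148, 4545, 4569, 4435 and 4468, a range of 1.16-fold that was the smallest of the 39 genes on their brightest probe sets. A dimmer probe set of Uroc1 read 533, 435, 389, 410.4 and 273, a range of 1.95-fold with RIIIS/J lowest. Amdhd1, the imidazolonepropionase that follows, read 5983, 3729.7, 1795, 1695 and 3231, a range of 3.53-fold. C57BL/6J lay 1.60-fold above the nearest strain, and FVB/NJ and NZW/LacJ were low. A dimmer probe set of Amdhd1 read 260.1, 386, 184, 155 and 339, a range of 2.49-fold with FVB/NJ and NZW/LacJ again low but BALB/CByJ highest. Ftcd, which passes the formimino group to folate, read 8508, 8652, 7288, 7479 and 6391, within 1.35-fold. Hal and Amdhd1 lie next to each other in the order of genes in RefSeq, and their strain orders differed, since NZW/LacJ was high for Hal and lowest for Amdhd1.

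For serine, glycine and proline, Gldc stood out. Gldc, the decarboxylase of the glycine cleavage system, read 1845, 2642, 1166, 3164 and 2485, a range of 2.71-fold. FVB/NJ lay 1.58-fold below the nearest strain, and the range without it was 1.71-fold. Prodh, proline dehydrogenase, read 2669.6, 1554, 2313, 1952 and 2542, a range of 1.72-fold with BALB/CByJ lowest. Aldh4a1, which follows Prodh in proline breakdown, read 1684, 2239.8, 2091, 1895 and 2053, within 1.33-fold, and had BALB/CByJ highest. The proline enzymes thus had opposite extremes in BALB/CByJ.

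The genes for leucine, isoleucine and valine breakdown, and for the propionate that the latter pair yields, were among those low in FVB/NJ. FVB/NJ was below the mean of the other strains for 8 of 8 of these genes, where 6520 of 11921 detected genes were, and the lowest strain for 4 of 8, against 26.3% of all detected genes. Their median deviation in FVB/NJ was -0.25. FVB/NJ was also below the mean for 5 of 5 genes of glutamate and the transaminases and 4 of 4 of the histidine pathway. NZW/LacJ was below the mean of its other strains for 5 of 5, 3 of 4 and, in the present role, 6 of 8. Mccc1 and Mccc2, the subunits of methylcrotonyl-CoA carboxylase in the leucine pathway, were low in FVB/NJ on every probe set. Mccc1 read 962, 1149, 403, 692 and 1212, a range of 3.0-fold with FVB/NJ 1.72-fold below the nearest strain. The other probe set of Mccc1 read 293, 324, 68.7, 244 and 569, with FVB/NJ 3.55-fold below the nearest strain. Mccc2 read 706, 863, 465, 563 and 721, a range of 1.85-fold, and its other probe sets had ranges of 2.0-fold and 2.38-fold. FVB/NJ was lowest on all 5 of these probe sets. Without FVB/NJ the range of Mccc1 was 1.75-fold.

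Bckdhb, a subunit of the branched-chain ketoacid dehydrogenase, read 3234, 6454, 4588, 5384 and 7446, a range of 2.30-fold. C57BL/6J was lowest for Bckdhb, 1.42-fold below the nearest strain, and without RIIIS/J the range was just under 2-fold. Bckdha, its partner subunit, read 1842, 2232, 1430.1, 1671 and 1249, a range of 1.79-fold that was 1.56-fold without RIIIS/J. RIIIS/J was highest for Bckdhb and lowest for Bckdha, so the partners did not move together. Ivd, isovaleryl-CoA dehydrogenase of the leucine pathway, read 1944, 1569.6, 1360.3, 1492 and 1462, a range of 1.43-fold. A dimmer probe set of Ivd read 1303, 758, 603, 677 and 818, a range of 2.16-fold, also highest in C57BL/6J. Hibch, a hydrolase of the valine pathway, read 1512, 916, 916, 850.5 and 777, a range of 1.95-fold. C57BL/6J was highest for Ivd and for Hibch, and 1.65-fold above the nearest strain for the latter. The subunits of propionyl-CoA carboxylase, Pcca and Pccb, had ranges of 1.36-fold and 1.56-fold, from 1237 to 1688 and from 1002 to 1563.

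Across all roles the 39 genes were mostly low in FVB/NJ, and less so in NZW/LacJ, and mostly high in RIIIS/J and C57BL/6J, by small amounts. Fewer hepatocytes and less RNA per hepatocyte cannot be told apart in whole liver. No amino acid gene had its highest value in FVB/NJ, where 23.6% of all detected genes and 15.2% of the abundant ones did. FVB/NJ was lowest for 14 of 39 (35.9%), against 26.3% of all detected genes and 29.5% of the abundant ones. Above the mean of the other strains there were 6 of 39 (15.4%), against 45.2% and 41.5%. The median deviation of the 39 genes in FVB/NJ was -0.20, that of all detected genes -0.02 and that of the 6 hepatocyte markers -0.10. The amino acid genes were thus mostly lower in FVB/NJ, beside B cell and erythroid genes that were high there, and the part of those cells was not tested.

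RIIIS/J was highest for 16 of 39 genes (41.0%), against 17.5% of all detected genes and 25.7% of the abundant ones, with a median deviation of 0.24. The hepatocyte markers had a median deviation of 0.13 in RIIIS/J, and 4 of the 6 were highest there. C57BL/6J was highest for 12 of 39 (30.8%), against 19.5% of all detected genes and 15.2% of the abundant ones. It was above the mean of the other strains for 30 of 39 (76.9%), against 50.0% and 53.0%, with a median deviation of 0.16. NZW/LacJ was above the mean of the other strains for 11 of 39 (28.2%), against 45.6% of all detected genes and 50.1% of the abundant ones. BALB/CByJ was highest for 7 genes (17.9%), against 21.5% of all detected genes and 22.7% of the abundant ones. It was lowest for 11 (28.2%), against 12.2% and 13.8%. NZW/LacJ was highest for 4 (10.3%), against 16.9% and 21.2%, and lowest for 7 (17.9%), against 16.8% and 21.1%. The median deviations of BALB/CByJ and NZW/LacJ, -0.03 and -0.07, were near 0. That of BALB/CByJ changed sign with a different reference, and that of NZW/LacJ when arrays were centred on their median. All these counts of highest and lowest strains rest on the brightest probe set of each gene. Of 23 further probe sets detected on all arrays, from 16 genes, 9 had the same highest strain, 9 the same lowest and 10 neither.

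**Figure D3:**
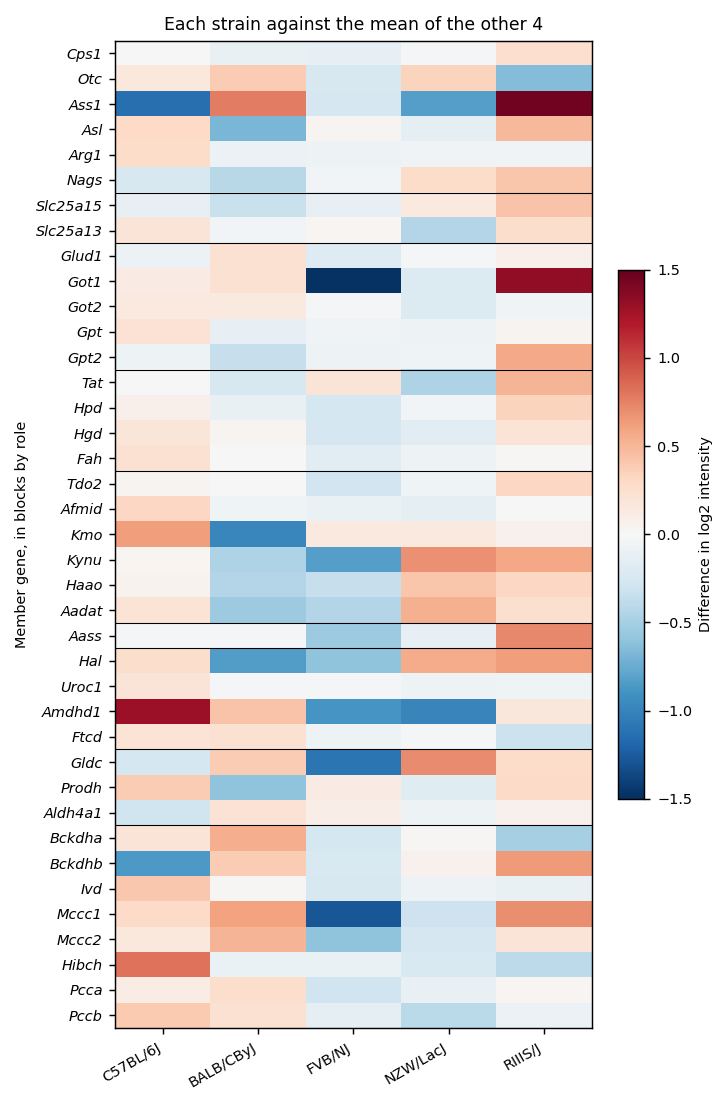
Heat map of the deviation of each of the 39 genes (rows, in blocks by role) in each strain (columns), as the difference in log2 intensity from the mean of the other 4 strains, red for higher and blue for lower. The FVB/NJ column is mostly blue, with a median of -0.20, and those of C57BL/6J and RIIIS/J mostly red, with medians of 0.16 and 0.24.

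**Figure D4:**
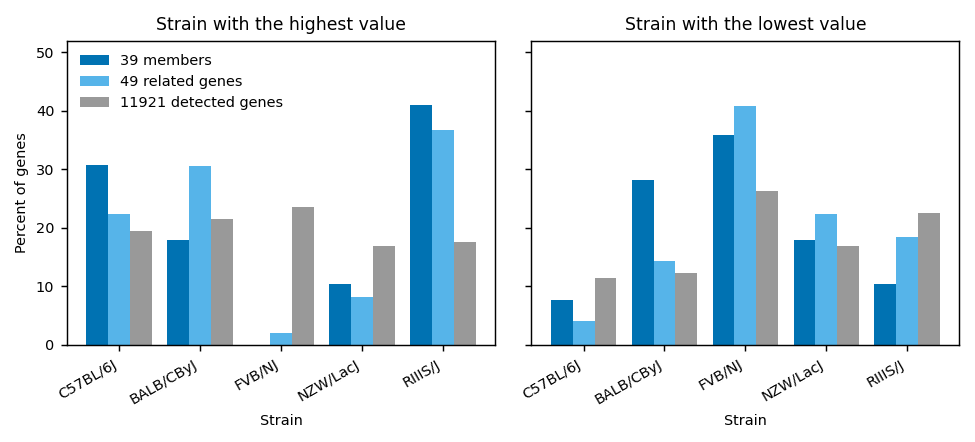
Share of genes (percent) with their highest and with their lowest value in each strain, for the 39 amino acid genes beside 49 related genes and all 11921 detected genes, bars starting at 0. FVB/NJ holds no highest value of these genes and 35.9% of the lowest, and RIIIS/J holds 41.0% of the highest.

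Differences of at least 2-fold from the nearest strain were rare. Of the 39 genes 1, Got1 in FVB/NJ, was that far below the other 4 strains, where 0.545% of all detected genes were. None of the 39 was that far above in FVB/NJ, where 5.98% of all detected genes but 0.823% of the abundant ones were, and 34 of the 39 are abundant. Of the abundant genes 0.72% were that far below in FVB/NJ. None of the 39 was that far away in another strain. In all detected genes the shares higher and lower were 0.495% and 0.419% for C57BL/6J, 0.814% and 0.436% for BALB/CByJ, 0.78% and 0.738% for NZW/LacJ, and 0.998% and 1.72% for RIIIS/J. At these shares a list of 39 genes holds few or none, so the counts of 0, in FVB/NJ among abundant genes and in the other strains, are near the background.

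Pairs of strains shared highs and lows, counted on the brightest probe sets and at any size of difference. C57BL/6J and RIIIS/J were both above the other 3 strains for 10 of 39 genes (25.6%), Cps1, Asl, Slc25a13, Gpt, Hpd, Hgd, Fah, Tdo2, Afmid and Prodh, against 5.54% of all detected genes. These 10 were all abundant, and the share of the 34 abundant amino acid genes was 29.4% against 8.48% of all abundant genes. None was below in both strains, against 5.01%. Some margins were small, as for Fah, at 12601 in RIIIS/J and 12435 in BALB/CByJ. The further detected probe sets of Tdo2, Hgd, Gpt and Afmid did not place both C57BL/6J and RIIIS/J above the rest. NZW/LacJ and RIIIS/J were both above the rest for 7 of 39 (17.9%, against 10.3%), among them Nags, Slc25a15, Kynu, Haao and Hal, and both below for 3 (7.69%, against 15.2%). BALB/CByJ and FVB/NJ were both below the rest for 7 (17.9%, against 13.9%) and both above for Aldh4a1 alone (2.56%, against 10.4%). These counts overlap because they use the same 5 arrays, and the pairs were chosen after the values were seen.

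Other genes of amino acid breakdown, outside the list, were also mostly low in FVB/NJ, where 11 of 49 detected genes (22.4%) were above the mean of the other strains, against 45.2% of all detected genes. Of the 49, 20 (40.8%) were lowest in FVB/NJ, against 26.3%, and 1 (2.04%) was highest there, against 23.6%. Their median deviation in FVB/NJ was -0.24. A 2-fold range was found for 15 (30.6%), close to the 30.8% of all detected genes. Cth, which makes cysteine from cystathionine, read 11298, 9639, 2862, 8986 and 13991, with FVB/NJ lowest. Bhmt, which remethylates homocysteine with betaine, read 51222, 51222, 26747, 51580 and 59325, again lowest in FVB/NJ. Oat, ornithine aminotransferase, a gene of hepatocytes around the central vein, read 20383, 11687, 10697, 7536 and 24434. It was high in C57BL/6J and RIIIS/J, like the 10 genes above. The 8 pericentral markers, Oat among them, had median deviations of 0.61 in C57BL/6J, -0.11 in BALB/CByJ, -0.42 in FVB/NJ, -0.30 in NZW/LacJ and 0.16 in RIIIS/J. The 5 periportal markers that are not on the amino acid list had 0.18, 0.32, -0.10, 0.27 and -0.12 in the same order. The part of either zone in the amino acid genes was not tested.

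Regulators and timing markers differed between the same arrays. Tat, Aass, Gpt2 and Got1 had their highest values in RIIIS/J, and so did G6pc, a gene of glucose output induced by fasting, which read 1688, 1542, 2036, 1243 and 5504. Pck1, a fasting gene of the same pathway, went the other way, with 16061, 26964, 15077, 12143 and 8196. The 12 detected fasting and hormone markers had a median deviation of -0.18 in RIIIS/J, so as a list they were not high there. Cebpa, a factor needed for urea cycle genes, read 2630, 3498, 2416, 2630 and 1215, lowest in RIIIS/J. Klf15, a factor that promotes amino acid breakdown, read 2342, 2276, 1890, 1194 and 1750, lowest in NZW/LacJ. Of the 13 regulators listed, 5 were lowest in RIIIS/J, and 3, Foxa2, Hnf4a and Ppargc1a, were highest there.

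Clock genes separated NZW/LacJ and RIIIS/J from the other strains. Dbp, which peaks toward dusk in liver, read 6439, 8951, 4939.5, 1023 and 75.5, and Arntl, which peaks toward dawn, read 13.7, 14.1, 14.1, 68.1 and 156. The 8 dusk genes had median deviations of -1.10 in NZW/LacJ and -2.22 in RIIIS/J, and the 4 dawn genes 1.29 and 1.35. These are also the strains in which Nags, Slc25a15, Gpt2, Kynu, Haao, Aadat and Hal were above the rest on their brightest probe sets. For Gpt2 the margin was small, 6421 in NZW/LacJ against 6366 in C57BL/6J, and NZW/LacJ was not above on its further probe sets. Aadat read 2464 in RIIIS/J against 2411 in C57BL/6J. The part of the time of collection in the values of these amino acid genes was not tested.

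**Figure D5:**
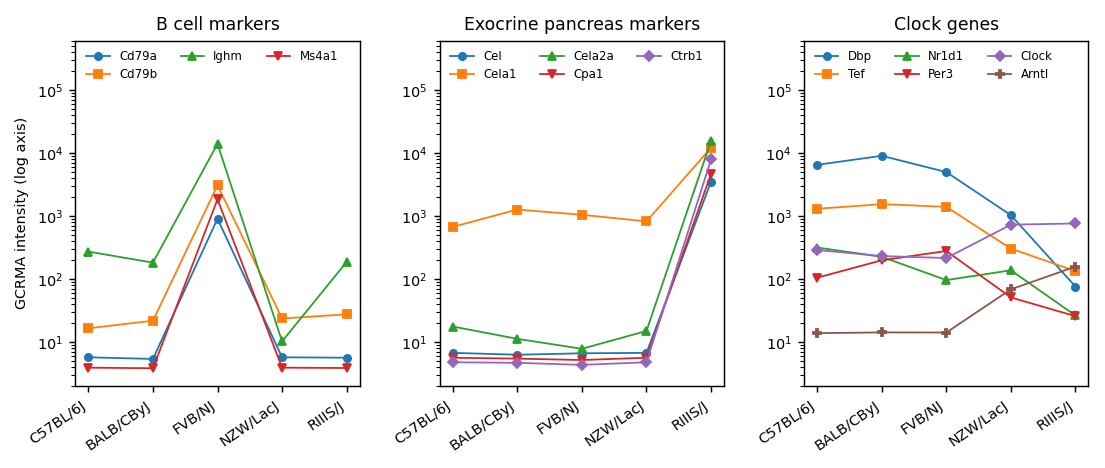
Intensity (log10 axis) of B cell, exocrine pancreas and clock genes on the 5 arrays, 1 line per gene and no error bars. B cell genes are high in FVB/NJ, pancreas genes in RIIIS/J, and Dbp falls from 8951 in BALB/CByJ to 75.5 in RIIIS/J.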

How the data were processed

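Whole liver RNA of 5 strains was hybridised to 1 Affymetrix array per strain. The authors deposited linear intensities for 45101 probe sets, which the submitters' processing notes tie to GCOS and GCRMA, whose versions are not given in the sources used here. GCRMA draws dim probe sets toward a common value. For 4 of 39 members some arrays gave identical values, as they did for 32.8% of detected genes. These 4, Aass, Arg1, Gpt2 and Kmo, were not dim, with tied values from 3185 for Kmo to 23224 for Arg1. The cause of the ties was not tested. Folds were taken between strains within 1 probe set. Levels of different probe sets entered the choice of the brightest, the calls of bright, dim and abundant, and the marker sums.

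Of the probe sets, 34958 carried 1 gene symbol, 932 several and 9211 none in the platform annotation. Those with several or none named no gene. Values were taken to log2 with Python 3.11.15, numpy 2.4.6 and pandas 2.3.3, and no further normalization was applied. A gene entered the background when its value passed 8.41 on at least 1 array. The calculation was checked on simulated data. The genes on the list, the marker lists and the related genes were chosen with earlier results of these data known. Values on all arrays were to be given for genes with a 2-fold range, genes apart in a strain and the 5 with the smallest range. Values of other genes were added after they were seen. The number of arrays limits the precision, and no test was possible. Alternatives were the detection floor, the choice of probe set, quantile normalization, median centring, the fold threshold, the reference and leaving out arrays. Promoters came from the RefSeq table, and 36 of the 45 genes matched.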

Additional observations from a re-analysis of the deposited data

How the results depend on the processing

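No paired analysis was possible because there is 1 array for every strain. The 10 genes with a 2-fold range became 23 at 1.5-fold, where 56.6% of all detected genes passed, and 4 without FVB/NJ and RIIIS/J. Leaving out 1 array gave 6 to 10, with 6 without FVB/NJ, and 20.5% to 28.0% of all detected genes. At 1.5-fold 2 genes were apart in C57BL/6J, 1 in BALB/CByJ, 3 in FVB/NJ and 2 in RIIIS/J. Of all detected genes 2.58%, 3.64%, 11.4% and 6.95% were apart in these strains at 1.5-fold. The mean of all probe sets gave 2 in FVB/NJ, against 4.9% of all detected genes, and median centring 1 in RIIIS/J, against 2.6%. Without FVB/NJ and RIIIS/J, 1 gene was apart in BALB/CByJ and 1 in NZW/LacJ, against 2.47% and 4.2% of all detected genes. Leaving out 1 array gave 1 to 2 in FVB/NJ (2 without C57BL/6J or NZW/LacJ) and 0 to 1 in RIIIS/J (1 without BALB/CByJ). In all detected genes the shares were 7.19% and 6.89% for these settings in FVB/NJ, and 3.08% in RIIIS/J without BALB/CByJ. The median deviation in C57BL/6J was 0.10 without FVB/NJ, up to 0.19 with other arrays left out, and 0.11 without FVB/NJ and RIIIS/J. Median centring gave -0.12 in BALB/CByJ, -0.32 in FVB/NJ, 0.018 in NZW/LacJ and 0.35 in RIIIS/J, and it moved the median of all genes in FVB/NJ to -0.12. The median as reference gave 0.019 in BALB/CByJ, where leaving out 1 array gave -0.078 to 0.020. In FVB/NJ the mean of probe sets and quantile normalization each gave -0.16, and leaving out 1 array -0.22 to -0.15. In RIIIS/J leaving out 1 array gave 0.14 to 0.27. Genes highest in FVB/NJ numbered 0 to 2 with 1 array left out, 2 of them without C57BL/6J. Of all detected genes 25.4% to 28.3% were highest there in these settings. Genes with C57BL/6J and RIIIS/J above the rest numbered 11 to 17, with 17 without BALB/CByJ, where 10.0% of all detected genes did so. Without FVB/NJ there were 11, against 8.42% of all detected genes, and without NZW/LacJ 15, against 17.1%. The cause of these shifts was not tested. The other 150 values stayed within their limits, a factor of 1.5 for counts and 0.036 for median deviations. Leaving out FVB/NJ with RIIIS/J, leaving out Ass1, and the counts of highest values and of strain pairs were chosen after seeing the data.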

Other observations

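A few related genes outside the amino acid list also differed between strains. Slc3a1, a subunit of the cystine and dibasic amino acid transporter, read 395 in C57BL/6J, 220.5 in BALB/CByJ, 250.1 in FVB/NJ, 969 in NZW/LacJ and 157 in RIIIS/J, a range of 6.15-fold. Csad, an enzyme of taurine synthesis, read 6373, 6591, 5611, 5073 and 2129 in the same order, with RIIIS/J lowest. Dhtkd1, an enzyme late in lysine breakdown, read 861, 2043, 1933, 534 and 369. These values are from 1 array per strain and have no replicate check.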
